A study of Mus musculus with 15 samples.

Results

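The effect of the *Snord116* deletion on cortical transcripts was compared between the light and the dark phase. For each gene, the genotype effect at a time was log2((*Snord116del* FPKM + 1)/(WT FPKM + 1)), and the time dependence was the effect at Zt +16 minus the effect at Zt +6. FPKM counts sequenced fragments for each kilobase of a transcript and corrects for the size of the library. The time dependence was computed for the 10297 of 23235 genes that had a mean of at least 1 FPKM over the 4 groups. The genes nearest this limit were Pgf just below it (0.9999 FPKM) and *Crnkl1* just inside it (1.0 FPKM).

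*Snord116del* mice lack a repeat cluster of small nucleolar RNA genes in the Prader-Willi domain, which is imprinted and read from the paternal chromosome, and with it the spliced host transcript *116HG*. The mammalian clock is a feedback loop in which CLOCK or NPAS2 pairs with ARNTL and switches on the Per and Cry genes, whose products then block that pair. A coupled loop of REV-ERB repressors (*Nr1d1*, *Nr1d2*) and ROR activators acts on *Arntl*, and the loop runs in the cortex as well as in the master clock of the hypothalamus.

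The 9 RNA-seq samples, of 15 in the series, came from cortex of adult male mice on a standard diet under a light and dark cycle, killed at Zt +6 (hours from lights on, in the light) or Zt +16 (in the dark). There were 3 WT and 2 *Snord116del* mice at Zt +6 and 2 and 2 at Zt +16. WT mice were labelled C57BL/6J and the deletion mice B6(Cg)-Snord116tm1.1Uta/J, *Snord116del* (+/-); per the study's methods the deletion came from the father, and WT and deletion mice were littermates. The labels name no other allele or agent in any group, and the deletion is in every cell of the mouse.

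The table holds 1 FPKM value for each group, so no spread between mice can be seen, no test or error could be computed, and every statement below compares 4 group values. It gives no fragment counts, so no counting error could be attached to a value. In place of a test, a gene was counted when its time dependence was at least 1 or at most -1 on the log2 scale, a 2-fold difference between the genotype effects. Where 4 FPKM values are listed, their order is WT, then *Snord116del* at Zt +6, then WT, then *Snord116del* at Zt +16, and the log2 time dependence follows in brackets. The groups differed as a whole: FPKM summed to 159300, 160199, 216422 and 342188 in that order, and the median over the genes tested lay between 2.90 and 5.63 FPKM. The labels of both *Snord116del* mice and 1 of 3 WT mice at Zt +6 name an earlier version of the table than those of the other 6 mice; the part of this in the time dependence was not tested. *Snord116* itself is listed at 0 in all 4 groups, so the deleted gene is no check of the labels. In homogenized cortex, fewer cells of a type and less RNA per cell cannot be told apart.

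On the deposited scale the genotype effects were wide and mostly upward at Zt +6, and narrow and nearly all slightly upward at Zt +16. The middle 50% of genes spanned 0.97 on the log2 scale at Zt +6 (median effect 0.57) and 0.33 at Zt +16 (median 0.35). The effect was above 0 in 77.6% of genes at Zt +6 and in 96.8% at Zt +16. The upward direction depended on the scale. The medians at Zt +6 and Zt +16 were -0.060 and 0.013 with the same median FPKM in every group, and 0.031 and -0.002 after quantile normalization. With the same total they were 0.60 and -0.11, upward at Zt +6 alone. They stayed upward, at 0.58 and 0.35, with a trend on transcript length removed. The time dependence had a median of -0.23, with the middle 50% of genes between -0.77 and 0.40. By the 2-fold rule, 1586 genes (15.4%) had a lower effect at Zt +16 and 1088 (10.6%) a higher one, together 26% of the genes tested. This balance followed the scale given to the groups: of the genes counted, 40.7% were on the higher side without scaling, 80.7% with every group set to the same median FPKM, 8.77% with the same total FPKM and 53.3% after quantile normalization. These scalings moved the median of all genes by 0.28, -0.51 and 0.18. Across genes, the effects at both times had a Spearman's rho of -0.45 (10297 genes, which are not independent replicates and share the 4 groups).

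**Figure D1:**
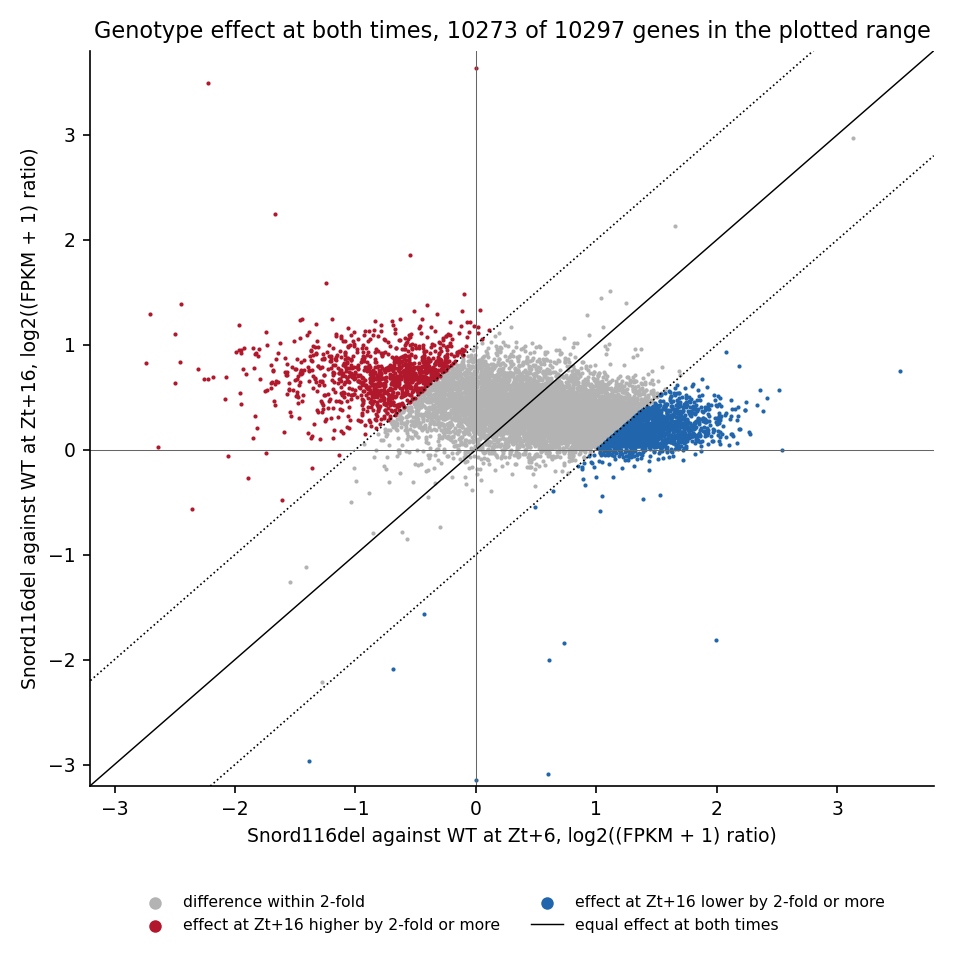
Genotype effect of each gene at Zt +6 (horizontal axis) and Zt +16 (vertical axis), both as the log2 ratio of FPKM + 1 in *Snord116del* to WT; each point is a gene, the solid line marks equal effects, the dotted lines the 2-fold rule, and 10273 of the 10297 genes lie within the axes. The cloud is wide along the Zt +6 axis and flat along the Zt +16 axis, with 1586 genes past the rule at the lower right and 1088 at the upper left, a balance that changes with the scale given to the groups.

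The genes on either side reached the rule in different ways. With a gene called higher or lower at one time when FPKM + 1 differed by at least 1.5-fold, 49.3% of genes were higher and 7.64% lower in *Snord116del* at Zt +6, and 19% were higher and 0.204% lower at Zt +16. Of the 1586 genes with a lower effect at Zt +16, 1562 (98.5%) were higher in *Snord116del* at Zt +6 and within 1.5-fold at Zt +16. Of the 1088 genes with a higher effect at Zt +16, 469 (43.1%) went from lower to higher, 340 (31.2%) from within 1.5-fold to higher and 247 (22.7%) from lower to within 1.5-fold. On the deposited scale, an effect that was upward in the light phase alone was thus the main class on the first side and opposite signs the main class on the second. The class of opposite signs was much smaller under the other scales, with 89 genes at the same median, 10 at the same total, 16 after quantile normalization and 114 with the length trend removed. Genes higher in *Snord116del* at both times numbered 308 (2.99%), and genes lower at both 9.

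The same difference can be read as how each genotype differed between the times. In WT, the log2 ratio of Zt +16 to Zt +6 spanned 0.55 over the middle 50% of genes, and 16.4% of genes differed by at least 1.5-fold, 588 higher (5.71%) and 1097 lower (10.7%) at Zt +16. In *Snord116del* the span was 1.62 and 64% of genes differed by that much, 2571 higher (25%) and 4022 lower (39.1%). The split turned with the scale: with the same median 3603 genes were higher and 2733 lower in *Snord116del* and 1107 and 997 in WT, and with the same total 857 and 6857 in *Snord116del* and 52 and 3007 in WT. Spearman's rho between the changes of both genotypes was 0.87 across genes. The genes higher at Zt +16 in both genotypes numbered 565, of 588 in WT and of 2571 in *Snord116del*, and the genes lower in both 1045, of 1097 and of 4022. A further 1998 genes were higher and 2974 lower at Zt +16 in *Snord116del* without passing 1.5-fold in WT. The group with the highest FPKM was *Snord116del* at Zt +6 for 57.7% of genes and *Snord116del* at Zt +16 for 41.1%, leaving 41 genes for WT at Zt +6 and 84 for WT at Zt +16.

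*Clock* genes had larger genotype effects in the light phase. Of 26 clock genes listed, 23 passed the FPKM filter. Their effects had a median of 1.13 at Zt +6 and 0.29 at Zt +16, and the time dependence a median of -0.81, against -0.23 over all genes. At least 1.5-fold higher in *Snord116del* were 16 of 23 at Zt +6, against 49.3% of all genes, and 1 of 23 at Zt +16, against 19%. By the 2-fold rule 9 of 23 had a lower effect at Zt +16 and none a higher one; the background was 15.4% and 10.6%. The number below 0 was 18 of 23 without scaling, against 60.3% of all genes, and between 15 and 22 under the 4 other scales. With every group at the same median 2 of 23 clock genes were past the rule, against 382 of 10297 genes on the lower side. Once the trend on transcript length was removed 3 of 23 were past it, against 991 of 10165 genes on the lower side.

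The activators of the loop were the most uniform group. *Clock*, which encodes the activator the loop is named for, was at 2.64, 9.77, 1.62 and 2.05 FPKM. The light-phase deletion group stands apart from the others, which lie close together, with effects of 1.56 and 0.21 and a time dependence of -1.35. *Rorb*, a ROR receptor, had the largest difference of the list, at 1.82, 9.50, 0.620 and 0.876 FPKM (-1.68). *Rora*, a second ROR receptor, was at 2.60, 8.31, 1.17 and 1.38 FPKM (-1.24). Both receptors were also lower at Zt +16 in WT. *Npas2*, which can replace CLOCK, was at 3.79, 10.2, 3.83 and 4.66 FPKM (-1.0), so that WT had nearly the same level at both times. *Arntl*, the partner of CLOCK, was low throughout, at 1.44, 3.57, 0.701 and 0.761 FPKM, and did not reach the rule (-0.86). All 5 activators tested were highest in *Snord116del* at Zt +6, and their median was below 0 under every scale, from -1.65 to -0.73. However, with the length trend removed 0 of the 5 were past the rule, and with the same median 1. *Clock* was at -0.55 and -0.96 under these scales.

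The repressors split. *Per2* was at 3.34, 8.85, 3.25 and 3.25 FPKM (-1.18). *Per3* was at 1.56, 4.62, 1.33 and 1.49 FPKM (-1.04). *Per1*, which also responds to neuronal activity, was higher at Zt +6 in both genotypes (9.89 and 15.8 FPKM, against 4.03 and 4.27) and did not reach the rule (-0.56). The Per genes thus shared a higher level than WT in the light phase and nearly equal genotypes in the dark phase, to different extents.

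*Cry1* and *Cry2*, which encode the partners of the PER proteins, did not show this shape. *Cry1* was at 1.87, 3.14, 3.01 and 4.03 FPKM (-0.20, but 0.02 with the same median and 0.12 after quantile normalization). *Cry2* was at 10.1, 10.9, 9.03 and 12.9 FPKM (0.37, but -0.23 with the same total). Neither gene reached the rule. *Nr1d1*, the REV-ERB alpha gene, was at 9.79, 30.8, 5.18 and 7.26 FPKM (-1.14). *Bhlhe40*, a repressor that competes for the sites of the CLOCK pair, was at 8.45, 23.5, 4.53 and 4.33 FPKM (-1.43), and it was past the rule under all 4 other scales as well. In both, the light-phase deletion group was far above the others and WT was higher at Zt +6 than at Zt +16. *Nr1d2*, the REV-ERB beta gene, was at 2.94, 7.65, 2.03 and 3.18 FPKM (-0.67), and *Gm129*, a further repressor, at 1.75, 2.50, 0.626 and 0.981 (-0.06, but 0.29 with the same median and 0.43 after quantile normalization). *Nfil3*, a repressor of the output genes, was low in all groups, at 2.44, 1.79, 1.85 and 2.54 FPKM (0.62).

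The output genes *Dbp*, *Tef* and *Hlf* encode related activators that carry the rhythm to downstream genes, and they differed. *Dbp* was at 1.86, 6.00, 0.797 and 0.900 FPKM (-1.21) and *Hlf* at 4.41, 13.0, 2.99 and 4.48 (-0.91). *Tef* was highest in the dark-phase deletion group, at 20.5, 24.0, 26.0 and 43.5 FPKM (0.50, but -0.14 with the same total). Of the genes for turnover of PER and CRY proteins, *Csnk1d*, *Csnk1e*, *Fbxw11* and *Btrc* did not reach the rule, with differences from -0.52 (*Csnk1e*) to 0.30 (*Btrc*, but -0.30 with the same total).

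**Figure D2:**
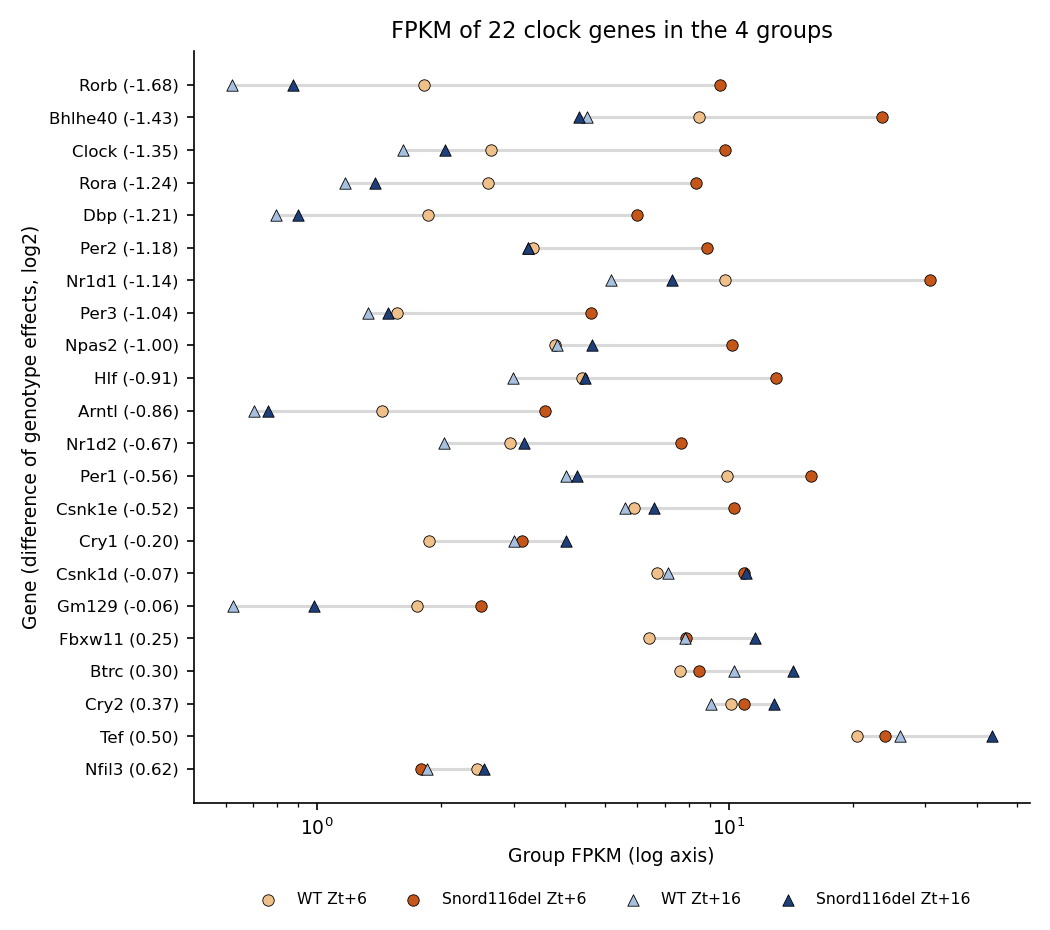
FPKM of 22 of the 23 clock genes tested in the 4 groups on a log axis, 1 symbol for each group value, with the time dependence (log2) after each name; there are no error bars because the table has 1 value for each group. The *Snord116del* group at Zt +6 is the highest value for 15 of the genes shown, among them all 5 activators, and the *Snord116del* group at Zt +16 for the other 7.

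The letters through which clock factors are known to act are shown for the loop genes that hold them, since these are the sequences by which the loop genes are tied to each other. The pair of CLOCK and ARNTL binds the E-box CACGTG, which reads the same on both strands, and DBP, TEF, HLF and NFIL3 bind the D-box TTATGTAA, searched here on both strands; the motifs do not overlap each other in these windows. The windows are the 250 bases before an annotated start site (RefSeq, GRCm38.p6), printed in the direction of the gene with motifs in capitals, and *Gm129* carries the symbol Ciart there. Of 32851 such windows, 6.02% hold CACGTG and 0.819% hold TTATGTAA.
Per1, chr11:69098699-69098948, plus strand: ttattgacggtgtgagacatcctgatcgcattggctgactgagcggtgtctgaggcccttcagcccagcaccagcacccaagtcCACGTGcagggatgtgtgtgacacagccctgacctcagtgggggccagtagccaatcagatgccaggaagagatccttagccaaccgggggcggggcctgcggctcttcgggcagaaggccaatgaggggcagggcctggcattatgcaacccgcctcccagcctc
Cry1, chr10:85185055-85185304, minus strand: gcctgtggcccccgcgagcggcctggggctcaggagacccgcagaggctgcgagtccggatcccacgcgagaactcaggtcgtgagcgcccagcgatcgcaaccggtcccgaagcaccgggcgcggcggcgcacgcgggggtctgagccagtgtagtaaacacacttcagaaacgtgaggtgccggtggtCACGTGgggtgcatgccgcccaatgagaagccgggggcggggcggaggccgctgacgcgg
Gm129, chr3:95882229-95882478, minus strand: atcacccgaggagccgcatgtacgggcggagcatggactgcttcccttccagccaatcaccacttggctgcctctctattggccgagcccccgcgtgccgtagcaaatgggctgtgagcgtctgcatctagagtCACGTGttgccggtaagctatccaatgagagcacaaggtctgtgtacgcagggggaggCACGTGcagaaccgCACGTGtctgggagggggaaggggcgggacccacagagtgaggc
Per3, chr4:151044666-151044915, minus strand: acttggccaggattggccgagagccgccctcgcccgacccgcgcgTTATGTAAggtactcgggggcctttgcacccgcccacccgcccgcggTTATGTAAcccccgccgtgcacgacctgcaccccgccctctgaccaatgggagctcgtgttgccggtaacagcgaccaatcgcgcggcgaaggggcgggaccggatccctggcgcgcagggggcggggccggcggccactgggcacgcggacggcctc

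*Gm129* has 3 E-boxes in this window, beginning 116, 58 and 44 bases before the start site, *Per1* has 1 at 166 and *Cry1* 1 at 60, and *Per3* has a pair of D-boxes at 205 and 158. Another annotated start of *Per1* has no match, and both annotated starts of *Tef* have 1 E-box. The genes with an E-box in the window, *Per1*, *Cry1*, *Gm129* and *Tef*, had differences of -0.56, -0.20, -0.06 and 0.50, none past the rule. Of all genes tested with an entry, 10.4% hold an E-box in such a window. From so few clock genes, no link between motif and rule is drawn. *Clock*, *Npas2*, *Rora*, *Rorb*, *Nr1d1* and *Dbp*, which are past it, have neither motif in these windows, which says only that the letters are not there. Of the 23 clock genes tested, 18 have an entry in the promoter table (*Per2*, *Bhlhe40*, *Csnk1d* and *Btrc* are among those without), and 79.8% of all genes tested do, which is under the 80% set for a comparison of shares; none is made.

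Genes for energy metabolism went the opposite way. The respiratory chain and ATP synthase, which make ATP in mitochondria, had 57 of 81 genes past the rule with a higher effect at Zt +16 and none with a lower one, against 10.6% and 15.4% of all genes. Their median effect was -0.71 at Zt +6 and 0.69 at Zt +16, and the time dependence 1.43. With the length trend removed, however, the median effect at Zt +6 was 0.12. At Zt +16 it was 0.05 with the same total and 0.07 after quantile normalization. In 66 of the 81 genes the lowest of the 4 groups was *Snord116del* at Zt +6, and in 75 the highest was *Snord116del* at Zt +16. The median time dependence stayed above 0 under each other scale, from 0.38 with the length trend removed to 1.79 with the same median. With the length trend removed, however, 17 genes were past the rule on the higher and 3 on the lower side.

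*Ndufb2*, a subunit of complex I, was at 300, 52.2, 447 and 961 FPKM, effects of -2.50 and 1.10 and a time dependence of 3.60. *Ndufc1*, another subunit of complex I, was at 466, 119, 745 and 1693 FPKM (3.15). The order of the genotypes differed between the times in both, with the deletion group lowest of all in the light and highest of all in the dark. *Atp5k*, a subunit of the ATP synthase, was at 876, 322, 1325 and 3135 FPKM (2.69), and *Atp5g1*, which encodes the ring through which protons pass, at 150, 59.0, 203 and 467 (2.53). *Cox6a2*, a muscle isoform of a complex IV subunit, was the lowest of the list at 1.48, 2.86, 2.23 and 2.29 FPKM (-0.61). *Sdhc*, of complex II, was next at 5.34, 11.2, 5.28 and 7.35 FPKM (-0.53).

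Ribosomal protein genes had the same shape on the deposited scale. Of the 80 genes for cytosolic ribosomal proteins tested, 39 were past the rule with a higher effect at Zt +16 and none with a lower one. The share was 48.8%, against 10.6% of all genes, and the median time dependence was 0.99. *Rpl36*, of the large subunit, was at 658, 230, 977 and 2001 FPKM (2.54). *Rps21*, of the small subunit, was at 1335, 515, 2411 and 4670 FPKM (2.33). In both, WT was higher at Zt +16 as well, and *Snord116del* lay below it in the light and above it in the dark. *Rplp0*, of the stalk that recruits translation factors, was the lowest at 10.5, 21.8, 8.87 and 12.4 FPKM (-0.56). Many ribosomal protein genes have near-identical pseudogenes, so reads may have been split among copies and these values are uncertain. Of the 74 mitochondrial ribosomal protein genes 37 were past the rule (50%), all with a higher effect at Zt +16 (median 0.97). They were led by *Mrpl52* at 105, 30.8, 197 and 394 FPKM (2.73). The medians of both lists stayed above 0 under all scales and were lowest, at 0.09 for the cytosolic and 0.27 for the mitochondrial genes, with the length trend removed, but after quantile normalization the cytosolic median was 0.22 and the mitochondrial one 1.03. With the length trend removed, 7 of 79 cytosolic genes were on the higher and 9 on the lower side, and 11 and 2 of the 74 mitochondrial ones. The median effect at Zt +6 was then above 0, at 0.42 for the cytosolic and 0.14 for the mitochondrial genes. At Zt +16 the mitochondrial median effect was -0.05 with the same total.

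Glycolysis and the proteasome had smaller differences. Of 16 glycolytic genes 5 had a higher effect at Zt +16 and 1 a lower one (31.2% and 6.25%, against 10.6% and 15.4% of all genes). Their median of 0.49 turned to -0.15 with the same total and -0.16 after quantile normalization. *Gapdh* was at 1386, 843, 1694 and 3368 FPKM (1.71), while *Eno1*, of the enolase step, was at 46.5, 174, 16.3 and 20.4 (-1.58). These are steps of one pathway with opposite differences. Of 35 proteasome subunits 11 had a higher effect (31.4%) and 1 a lower one (2.86%), with a median of 0.63 (lowest 0.04 with the same total). *Psmb5*, the chymotrypsin-like site, was at 76.5, 30.2, 101 and 199 FPKM (2.29), and *Psmd3*, of the regulatory cap, at 6.25, 23.7, 2.08 and 3.25 (-1.30).

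Receptor and channel genes of neurons followed the clock activators. Of 33 glutamate and GABA receptor genes, 16 had a lower effect at Zt +16 (48.5%, against 15.4% of all genes) and none a higher one. The median effect was 1.30 at Zt +6 and 0.36 at Zt +16 and the time dependence -0.92, which stayed below 0 under every scale (from -1.42 to -0.54). With the length trend removed 7 genes were past the rule, as with the same median. *Snord116del* at Zt +6 was the highest group for 31 of the 33 genes. *Grin2a*, an NMDA receptor subunit that binds glutamate, was at 4.60, 23.4, 0.990 and 1.21 FPKM (-1.98). *Gria2*, the AMPA receptor subunit that keeps calcium out of the channel, was at 10.2, 55.4, 5.07 and 7.14 FPKM (-1.91). In both genes, WT was also lower at Zt +16 than at Zt +6, and the genotypes lay close together in the dark. *Gabbr2*, a subunit of the GABA-B receptor, was at 27.3, 100, 16.1 and 19.9 FPKM (-1.55). The highest of the list were *Grina*, at 81.6, 113, 60.1 and 123 FPKM (0.55), and *Gabrd*, at 13.5, 19.3, 12.1 and 23.8 (0.44), both with a sign that turned with the same total.

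Of 73 sodium, calcium and potassium channel genes 31 had a lower effect at Zt +16 and 2 a higher one (median -0.86). The shares were 42.5% and 2.74%, against 15.4% and 10.6% of all genes. With the length trend removed the counts were 12 and 1, and with the same median 13 and 3. *Kcnq3*, of the M current that damps firing, was at 2.84, 15.2, 0.834 and 0.997 FPKM (-1.95). *Kcnj4*, an inward rectifier potassium channel, went the other way at 16.2, 9.72, 16.3 and 25.5 FPKM (1.29). Of 42 cadherin and protocadherin genes, which encode adhesion proteins, 12 had a lower effect (28.6%, against 15.4% of all genes). All 42 lay below 0 (median -0.81), against 60.3% of all genes. With the same median 3 were past the rule, and 5 of 26 with the length trend removed. Clustered protocadherins share sequence, so reads between them may have been split. The genes of synaptic vesicle release were divided on the deposited scale, with 8 lower and 2 higher of 23 (34.8% and 8.7%, against 15.4% and 10.6% of all genes). Their median was -0.09, but 0.27 with the same median and 0.01 with the length trend removed. It was -0.74 with the same total and -1.17 after quantile normalization. After quantile normalization 13 of the 23 were on the lower side and 0 on the higher one. *Sv2a*, a vesicle glycoprotein, was at 10.5, 51.0, 1.42 and 2.01 FPKM (-1.86), and *Rab3a*, a small GTPase of vesicles, at 138, 100, 189 and 309 (1.16).

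**Figure D3:**
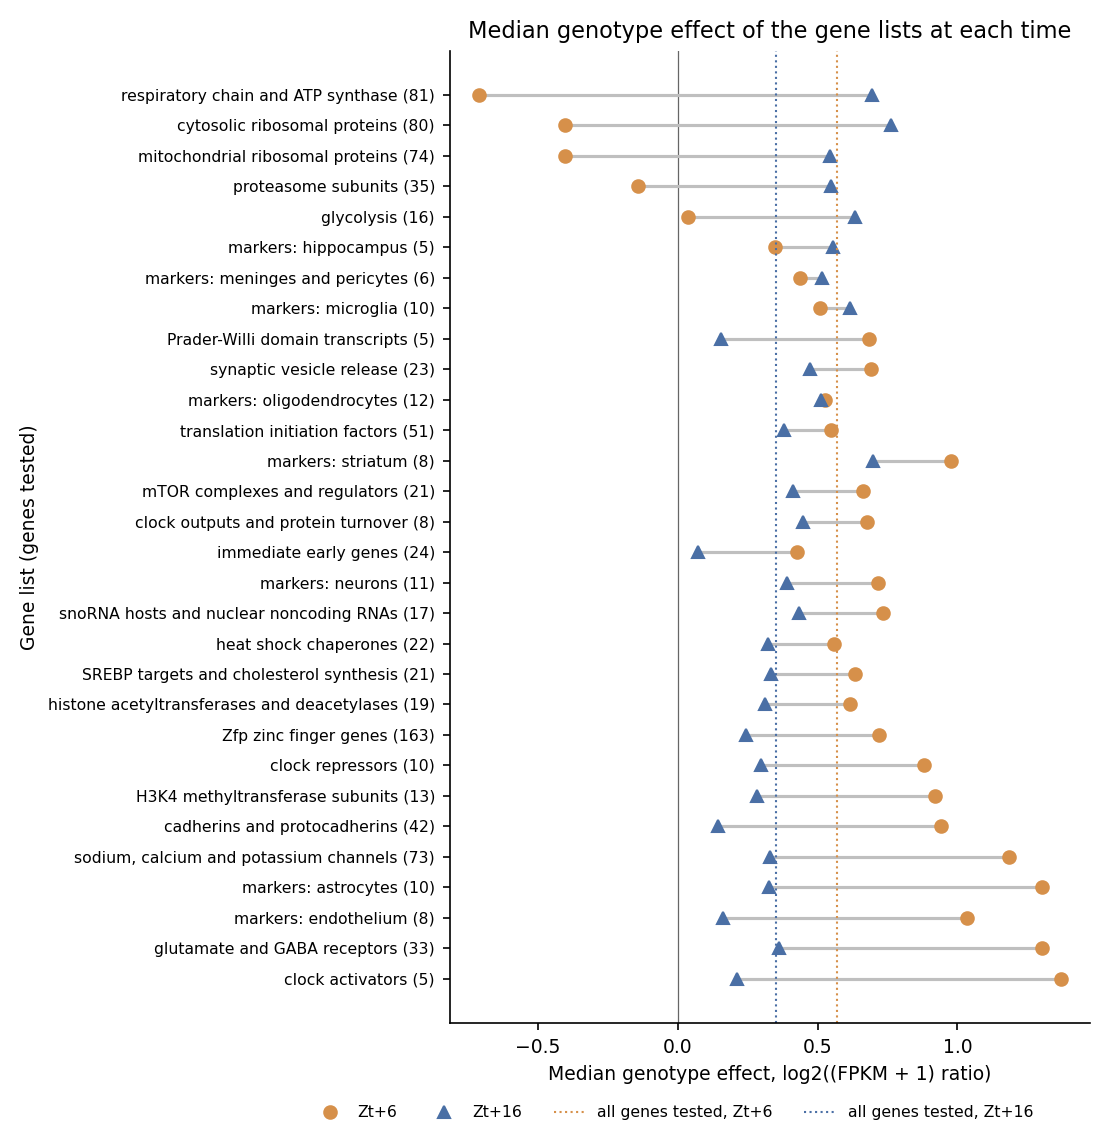
Median genotype effect of each gene list at Zt +6 (circles) and Zt +16 (triangles), log2 ratio of FPKM + 1, with the number of genes tested in brackets and dotted lines for the medians of all genes tested. Respiratory chain and ribosomal lists lie below 0 at Zt +6 and above 0 at Zt +16, while clock activators, receptors, channels and markers of astrocytes and endothelium lie to the right of the Zt +6 line and near the Zt +16 line; the positions against 0 depend on the scale given to the groups.

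On the deposited scale, chromatin regulators had genes past the rule on the lower side alone. Of 13 H3K4 methyltransferase subunits, the complexes that mark active promoters, 5 had a lower effect at Zt +16 (38.5%, against 15.4% of all genes) and none a higher one (median -0.61). With the same median 2 were past the rule and with the length trend removed none, the median then being -0.21. *Mll3* was at 2.98, 12.2, 0.887 and 1.03 FPKM (-1.63, but -0.49 with the length trend removed) and *Mll1* at 4.47, 15.6, 1.5 and 1.68 (-1.5, but -0.37), while *Dpy30*, a small shared subunit, was at 8.29, 6.83, 12.9 and 16.4 (0.57, but -0.03 with the same total and -0.66 with the length trend removed). Of 19 acetyltransferases and deacetylases 5 had a lower effect (26.3%), among them *Ep300* at 3.52, 14.5, 1.39 and 2.01 FPKM (-1.45, but -0.64 with the length trend removed) and its relative *Crebbp* at 5.31, 17.5, 2.19 and 2.60 (-1.38, but -0.66). In this list 1 gene was past the rule on the lower side with the length trend removed, and 1 on each side with the same median. Its median was -0.44, and -0.14, -0.06 and -0.09 with the same median, after quantile normalization and with the length trend removed. Above 0 were 8 of the 19, led by *Hdac11* (0.67) and *Kat5* (0.60, but -0.02 with the same total).

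Of 21 genes of the mTOR complexes and their regulators, 1 had a lower and 1 a higher effect at Zt +16. Each share was 4.76%, below the 15.4% and 10.6% of all genes. The list median was -0.24, near that of all genes (0.09 with the same median and 0.04 with the length trend removed). For *Mtor*, the kinase of both complexes, the 4 values were 5.32, 8.95, 6.16 and 8.65 FPKM, a time dependence of -0.23 that was 0.09 with the same median and 0.57 with the length trend removed. Its genotype effect was 0.65 at Zt +6 and 0.43 at Zt +16, against medians of 0.57 and 0.35 over all genes. *Mtor* was thus past 1.5-fold at Zt +6 alone on the deposited scale. That class held 46.2% of all genes, and 14.9% with the same median. *Ddit4*, an inhibitor of mTORC1 that stress induces, was at 11.8, 4.74, 14.1 and 19.8 FPKM (1.63), and *Pik3ca*, the catalytic subunit of a PI3 kinase, at 1.38, 5.85, 0.836 and 1.09 (-1.34). Of other genes the study names, *Mertk*, a receptor for engulfment of debris, was at 1.52, 10.5, 0.270 and 0.457 FPKM (-1.99), *Igf2r*, the receptor that removes IGF2, at 0.938, 3.10, 0.343 and 0.390 (-1.03) and *Ccdc12* at 19.3, 5.95, 26.5 and 40.1 (2.13).

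Immediate early genes, which neurons switch on within minutes of activity, had 2 lower and 2 higher of 24. Each share was 8.33%, below the 15.4% and 10.6% of all genes. The median was -0.30, but 0.08 with the same median. *Homer1*, which has a short activity-induced form, was at 11.3, 53.5, 3.49 and 4.86 FPKM (-1.76), and *Arc*, of synaptic scaling, at 49.5, 130, 14.4 and 14.8 (-1.33). *Egr4* was at 29.0, 7.05, 21.8 and 17.9 FPKM (1.63) and *Ier2* at 7.65, 2.98, 7.59 and 8.68 (1.29). In WT, *Arc* and *Homer1* were higher at Zt +6 than at Zt +16, and the deletion group widened that gap.

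Of 22 heat shock chaperones 4 had a lower effect at Zt +16 and 3 a higher one (18.2% and 13.6%, near the 15.4% and 10.6% of all genes; median -0.43). *Hspa4l*, a nucleotide exchange factor, was at 3.58, 16.2, 1.52 and 2.04 FPKM (-1.64), and *Dnajb1*, a cofactor of HSP70, at 23.4, 11.7, 23.3 and 44.1 (1.83). Of 21 cholesterol synthesis genes and SREBP targets 3 had a lower and 2 a higher effect (14.3% and 9.52%; median -0.44). *Srebf2*, which encodes their activator, was at 2.50, 9.19, 1.09 and 1.4 FPKM (-1.35), and *Mvk*, an enzyme of the pathway, at 6.27, 4.05, 8.01 and 14.2 (1.28). The regulator and the enzyme differed in sign. Translation initiation factors were taken by their Eif symbol, which also takes in Argonaute genes such as *Eif2c3*. Of these 51 genes, 4 had a lower and 8 a higher effect (7.84% and 15.7%). The median was -0.12, but 0.21 with the same median. The lowest was *Eif2c3* at 0.771, 3.84, 0.145 and 0.189 FPKM (-1.4), and the highest *Eif3g* at 67.0, 28.1, 120 and 165 (1.69). Of 163 Zfp zinc finger genes 28 had a lower and 8 a higher effect (17.2% and 4.91%; median -0.47).

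In the Prader-Willi domain, 5 of the listed transcripts passed the filter and no single shape held. *Snurf* was at 18.9, 29.1, 9.68 and 0.255 FPKM (-3.68). *Snrpn*, which shares its transcription unit with *Snurf*, was at 65.3, 105, 90.0 and 149 FPKM (0.04, but -0.61 with the same total, -0.83 after quantile normalization and -0.28 with the length trend removed), with the same order of genotypes at both times. The split of reads between the 2 overlapping names is uncertain. *Ipw*, a non-coding transcript of the domain, was at 21.6, 3.40, 3.17 and 1.82 FPKM (1.80), so that the deletion groups were lower at both times and the gap was narrower in the dark. *Ndn*, a paternally expressed gene of neurons, was at 12.7, 24.9, 19.3 and 48.6 FPKM (0.37, but -0.28 with the same total and -0.20 with the length trend removed), and *Ube3a*, the ubiquitin ligase gene of Angelman syndrome, at 1.55, 5.41, 0.582 and 0.761 (-1.18). Of 17 snoRNA hosts and nuclear non-coding RNAs 6 had a lower and 2 a higher effect (median -0.39). The shares were 35.3% and 11.8%, against 15.4% and 10.6% of all genes. *Snhg11* was at 25.8, 139, 2.01 and 2.87 FPKM (-2.01) and *Snhg3* at 42.5, 23.1, 60.2 and 93.6 (1.48).

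Of the genes that averaged at least 5 FPKM and had no group at 0, the 12 lowest in time dependence all had their highest value in *Snord116del* at Zt +6. *Cdr1*, the locus of a circular RNA abundant in neurons, was at 25.3, 301, 1.46 and 3.13 FPKM (-2.78). *Fam171b* was at 3.54, 19.4, 0.847 and 0.931 FPKM (-2.11), and *Peg3*, an imprinted zinc finger gene, at 6.15, 30.5, 1.09 and 1.29 (-2.01). *Pcdh7*, *Grin2a*, *Fermt2*, *Cap1*, *Tmem30a*, *Ndfip1* and *Gria2* lay between -1.99 and -1.91. In 10 of the 12 the lowest group was WT at Zt +16, and in *Snurf* and *Cap1* it was *Snord116del* at Zt +16.

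The 12 highest differences all had their lowest value in *Snord116del* at Zt +6 and their highest in *Snord116del* at Zt +16. *Gp1bb*, a subunit of a platelet adhesion receptor, was at 188, 28.0, 253 and 620 FPKM (3.99). *Rnaseh2c*, a subunit of RNase H2, was at 55.9, 9.35, 114 and 204 FPKM (3.29), *Siva1*, a small apoptosis gene, at 47.2, 7.51, 81.3 and 127 (3.14) and *Mif*, a cytokine, at 468, 97.3, 957 and 1524 (2.93). The WT groups lay between the deletion groups in all of these. The 12 highest had a median transcript of 675 bases and the 12 lowest one of 4820 bases.

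**Figure D4:**
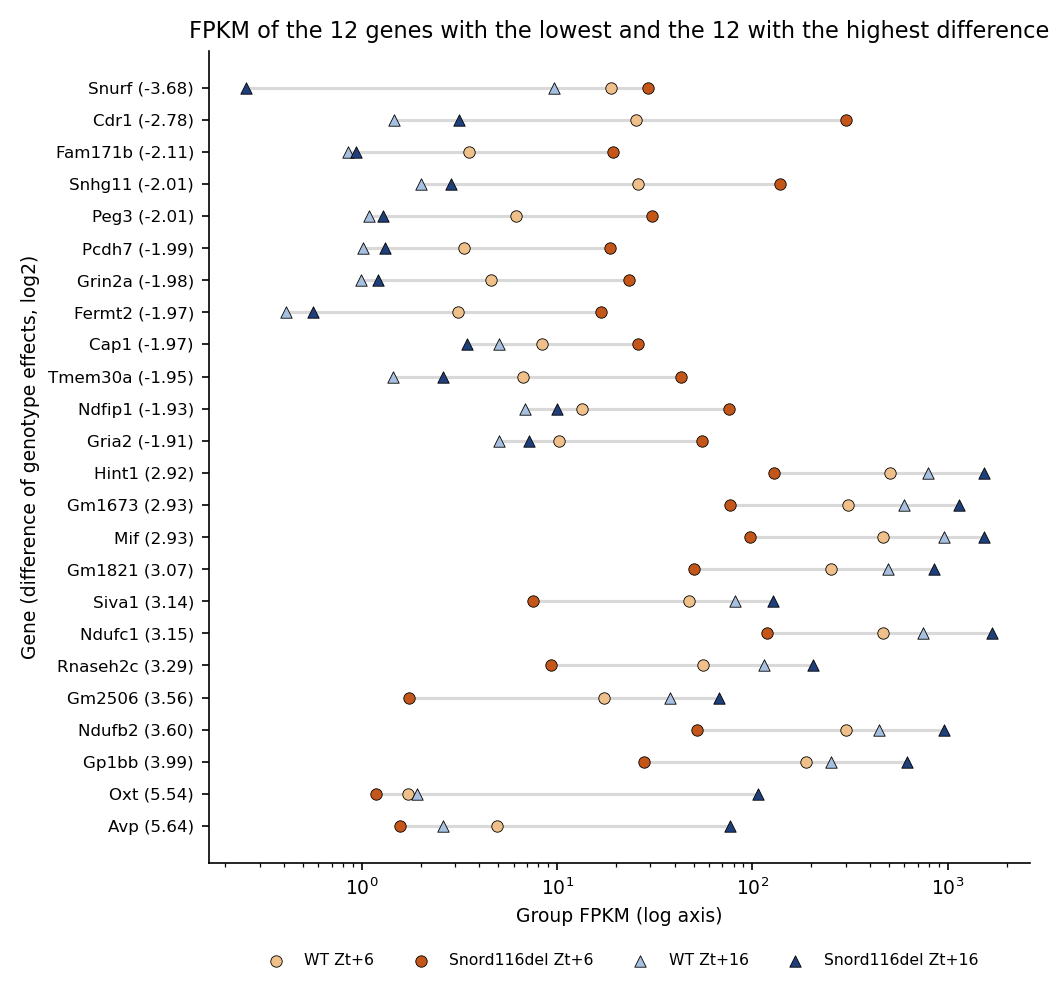
FPKM of the 12 genes with the lowest and the 12 with the highest time dependence in the 4 groups on a log axis, 1 symbol for each group value, with the time dependence (log2) after each name and no error bars, since the table has 1 value for each group. The upper 12 genes have *Snord116del* at Zt +6 as their rightmost point and the lower 12 *Snord116del* at Zt +16; *Avp* and *Oxt* stand apart, with 3 groups between 1.18 and 4.90 FPKM and the fourth at 76.6 and 107.

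Of these 24 genes, the largest differences belonged to *Avp* and *Oxt*, neighbouring genes for the neuropeptides vasopressin and oxytocin, which large neurons of the hypothalamus make. *Avp* was at 4.90, 1.56, 2.60 and 76.6 FPKM, effects of -1.21 and 4.43 and a time dependence of 5.64. *Oxt* was at 1.72, 1.18, 1.91 and 107 FPKM, effects of -0.32 and 5.21 and a time dependence of 5.54. The dark-phase deletion group thus stood alone, while the other 3 groups were within 5 FPKM. Both differences were above 4 under every scale and with the length trend removed. The 250 bases before the start of each gene are shown because both genes stood apart together and vasopressin is a known clock output; *Avp* has 1 E-box, 139 bases before its start, and *Oxt* has neither motif in this window.
Avp, chr2:130582589-130582838, minus strand: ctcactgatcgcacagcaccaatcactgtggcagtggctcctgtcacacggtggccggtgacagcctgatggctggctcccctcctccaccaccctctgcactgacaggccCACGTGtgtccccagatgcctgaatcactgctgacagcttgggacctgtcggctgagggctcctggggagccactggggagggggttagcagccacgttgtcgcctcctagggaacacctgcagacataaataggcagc
Oxt, chr2:130575919-130576168, plus strand: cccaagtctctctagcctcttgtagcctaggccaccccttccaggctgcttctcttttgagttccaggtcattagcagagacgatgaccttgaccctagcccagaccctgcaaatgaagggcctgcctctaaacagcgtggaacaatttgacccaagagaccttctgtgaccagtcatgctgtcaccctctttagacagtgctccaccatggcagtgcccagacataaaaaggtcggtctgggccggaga

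Other genes of the hypothalamus were read beside them, from a list chosen after the values were seen. The list was prompted by *Avp* and *Oxt*, leaves both out, and is given as values only. Of all genes tested, 41.1% were highest in *Snord116del* at Zt +16. FPKM over all genes summed to 159300, 160199, 216422 and 342188, so a higher sum in that group is not particular to this list. Of the 18 genes on the list, 13 were highest in *Snord116del* at Zt +16. Without *Cartpt*, *Npy*, *Sst*, *Vip* and *Crh*, which cortical neurons also make, the other 13 summed to 14.9, 12.8, 16.3 and 34.5 FPKM, and 8 of them were highest in the dark-phase deletion group. Among them, *Pomc*, the precursor of melanocortins, was at 1.69, 1.5, 2.31 and 5.34 FPKM, and *Hap1*, a huntingtin partner abundant in the hypothalamus, at 7.68, 6.30, 7.49 and 16.9. Sim1 and Otp, factors that form the neurons of *Avp* and *Oxt*, were under 0.25 FPKM in all groups, as were Pmch and Agrp, and Agrp is listed at 0 in *Snord116del* at Zt +16. Since the group value joins 2 mice, it cannot show whether 1 or both had these levels, and the part of tissue next to the cortex in the values was not tested.

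Cell type markers differed by type. The 10 astrocyte markers had a median of -0.90, with 4 past the rule (40%, against 15.4% of all genes) and none on the higher side. They summed to 243, 651, 187 and 262 FPKM. *Slc1a3*, a glutamate transporter of astrocytes, was at 16.2, 58.7, 6.73 and 7.85 FPKM (-1.6), while *S100b* was at 18.1, 27.9, 19.5 and 33.0 (0.13, but -0.51 with the same total, -0.20 after quantile normalization and -0.56 with the length trend removed). The 8 endothelial markers tested had a median of -0.90 with 3 past the rule on the lower side (37.5%). All 9 listed summed to 43.4, 86.5, 49.6 and 66.4 FPKM. None of these markers was at 0 in any group.

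Neuronal markers had 3 of 11 past the rule on the lower side (27.3%, against 15.4% of all genes). The median was -0.33, but 0.03 with the same median, and the summed level was 1091, 1855, 888 and 1274 FPKM. With the same median 0 of the 11 were past the rule on the lower side and 2 on the higher one. On the lower side were 1 with the length trend removed and 4 after quantile normalization, with 0 on the higher side. *Gad1*, for GABA synthesis, was at 10.7, 27.5, 10.1 and 10.4 FPKM (-1.24). *Slc17a7*, for loading of glutamate into vesicles, was at 105, 127, 60.3 and 120 FPKM (0.71, but -0.26 after quantile normalization). Oligodendrocyte markers had 1 of 12 on the lower side and microglial markers 1 on each side of 10; they summed to 544, 844, 823 and 1194 FPKM and to 108, 149, 129 and 226 FPKM. As markers of the labelled cortex, *Slc17a7* was at 60.3 FPKM or more and *Syt1*, a calcium sensor of synaptic vesicles, at 19.4 or more in every group. *Ttr*, of the choroid plexus, was at 200, 182, 24.9 and 29.6 FPKM, lower at Zt +16 in both genotypes, with a time dependence of 0.38 (-0.25 with the same total, -0.61 after quantile normalization and -0.51 with the length trend removed). The summed level of 9 striatal markers was 211, 206, 354 and 582 FPKM, of 8 hippocampal markers 30.3, 48.5, 24.4 and 42.7, of 5 red cell genes 280, 327, 1082 and 1160, and of 9 meningeal and pericyte markers 27.5, 52.3, 19.2 and 34.7. The part of any cell type in the time dependence was not tested.

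Transcript length went with the time dependence across the whole table. Spearman's rho across 10165 genes with a length was -0.63 (0.63 for the effect at Zt +6 and -0.38 for that at Zt +16), and genes in it share the 4 groups and their libraries. For transcripts of 500 to 1000 bases the median effect went from -0.47 at Zt +6 to 0.59 at Zt +16, and 53% of genes were past the rule on the higher side. For transcripts over 8000 bases it went from 1.34 to 0.18, and 65.8% were past the rule on the lower side. The median time dependence was lower in each longer bin between, from 1.10 to -1.15. Abundance and base composition went with it too: the median was -0.49 below a mean of 2 FPKM and 1.38 above 100 FPKM, and -0.72 below 45% GC and 0.38 above 60%. At a like length abundance still went with it, since among transcripts of up to 1500 bases the median was 0.27 below 5 FPKM and 1.56 from 50 FPKM, and above 4000 bases it was -0.82 and -0.22.

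**Figure D5:**
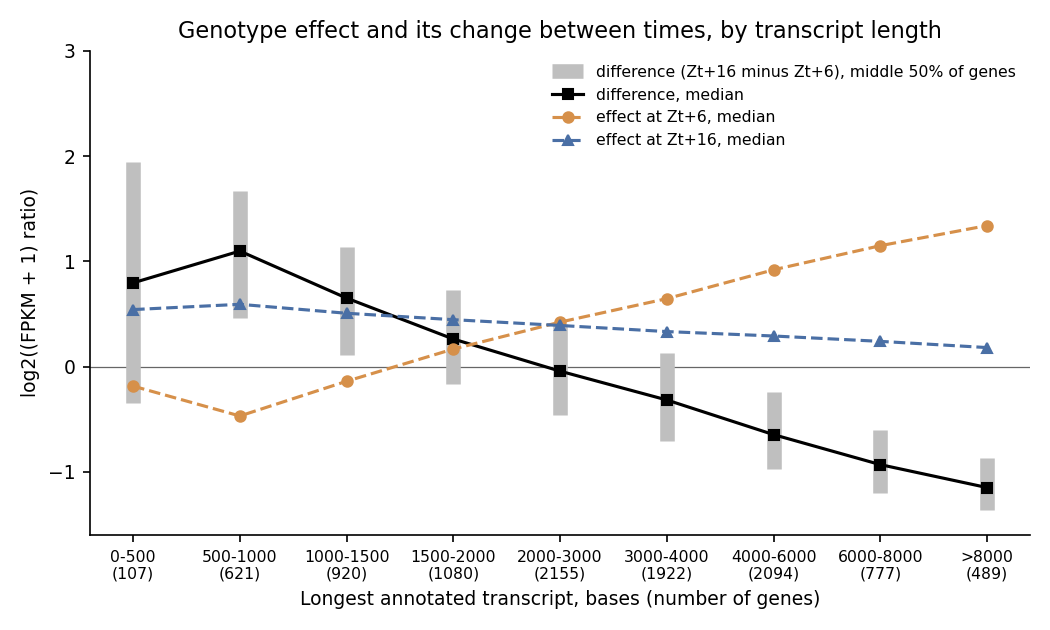
Median genotype effect at Zt +6 (circles) and Zt +16 (triangles) and median time dependence (squares, with grey bars for the middle 50% of genes), log2 ratio of FPKM + 1, by length of the longest annotated transcript, with the number of genes in brackets. The Zt +6 line climbs from -0.47 at 500 to 1000 bases to 1.34 above 8000 bases while the Zt +16 line falls from 0.59 to 0.18, and the lines cross between the bin of 1500 to 2000 bases and that of 2000 to 3000 bases; the height of each line depends on the scale given to the groups.

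The gene lists differ in length in the same order: the median transcript was 963 bases for the respiratory chain, 946 for cytosolic ribosomal proteins, 4820 for receptors and 8645 for clock activators. With the length trend removed, list medians were 0.38, 0.09, -0.66 and -0.73, against -0.24 for all genes, and 384 genes were past the rule on the higher side and 991 on the lower. The shares were also read on each side of 4000 bases, ranges that are wide and in which the lists need not have the lengths of the rest: among transcripts over 4000 bases 14 of 24 receptor genes (58.3%) and 6 of 13 clock genes (46.2%) were on the lower side, against 33.8% of 3360 genes, and among shorter transcripts 54 of 77 respiratory genes (70.1%) were on the higher side, against 15.2% of 6805. Whether length, or a library property that goes with it, has a part in the time dependence was not tested.

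The time dependence was also read beside the *116HG* ChIRP peaks, which mark chromatin pulled down with oligos against *116HG* in whole brain, with no time of day in the labels. Of the tested genes in the annotation, 1832 had a replicated WT peak (within 10 kb of a peak of the other WT replicate) inside them or within 2 kb. Their median was -0.46 and 23% were on the lower side, against -0.18 and 13.8% of 8333 genes without one, but their transcripts were longer (median 3625.5 against 2969 bases). Among transcripts over 4000 bases the medians were -0.90 and -0.75, with 41.7% and 31.3% on the lower side. Among those of up to 1500 bases the medians were 0.86 and 0.79. Genes near peaks of the WT control with non-specific oligos had a median of -0.64 and 28% on the lower side (257 genes), and those near *116HG* peaks of *Snord116del* brain -0.45 and 20.6% (291 genes). Genes near peaks of the non-specific oligos in *Snord116del* brain had a median of -0.30 and 15.8% on the lower side (1080 genes). Above 4000 bases the share on the lower side was 41.7% at *116HG* peaks. For these 3 control lists, in the order given, it was 48.5%, 34.8% and 29.2%. From 1500 to 4000 bases it was 9.22% at *116HG* peaks and 3.88%, 5.88% and 5.43% at the controls. Up to 1500 bases it was 4% at *116HG* peaks and 11.1%, 12.9% and 6.84% at the controls. These control shares are 2 of 18, 4 of 31 and 8 of 117 genes. From 1500 to 4000 bases the controls hold 103, 119 and 497 genes. The place of *116HG* peaks among the controls differed between the length ranges, but with so few control genes no order is read from it. A part of *116HG* in the time dependence was not tested.

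Short RNA genes gave the most extreme values and the least readable ones. Of 732 microRNA, snoRNA and scaRNA genes in the table, 33 had a mean of at least 1 FPKM. Of these, 15 were past the rule on the higher and 11 on the lower side (45.5% and 33.3%, against 10.6% and 15.4% of all genes). *Mir744* is listed at 3541 FPKM in WT at Zt +16 and at 0 in the other 3 groups, and *Snora30* at 276 FPKM in *Snord116del* at Zt +16 and at 0 elsewhere. *Mir3062* and *Mir133a-2* are listed above 0 in WT at Zt +6 alone, at 193 and 134 FPKM. At this length a value can rest on very few fragments, so no direction is given for these genes.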

How the data were processed

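RNA from cortex was sequenced on the HiSeq 2000 after library preparation with a NuGEN Encore kit. The authors aligned reads to mm9 with TopHat2 (2.0.5 in the submitters' processing notes) and estimated FPKM with Cuffdiff (2.0.2); the deposited table has 1 FPKM value for each gene and group. Its columns of log2 fold change and q-value hold the authors' comparison at each time and were not used. The authors' ChIRP peaks (Bowtie2 2.0.0, MACS 1.4.2) were used by position.

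With 1 value for each group, fold rules took the place of a test. No value of a single mouse is in the table (0 columns were set aside). Effects were log2(FPKM + 1) differences, which understate changes of low genes. Lengths came from GENCODE (NCBIM37, which is mm9) and covered 98.7% of the genes tested. The members, gene lists and rules were chosen with earlier results of these data known. Named were the 12 lowest and 12 highest differences, 6 and 6 with effects of opposite sign (mean of at least 5 FPKM), 2 at each end of every list (3 for short RNAs), the clock genes and genes the study names, some of which are not reported here; receptors, channels and marker genes beyond these were picked as examples after their values were seen. The fold rule was tested on simulated data: on 10297 genes with small noise it recovered 100% of 200 genes changed 4-fold and called 0% of the others, which checks the code only. Alternatives covered the pseudocount (0.1, 5), the FPKM filter, 4 scalings of the groups (same median, same total, quantile, lowess removal of the length trend) and the folds. Software was pandas 2.3.3, numpy 2.4.6, statsmodels 0.14.6 and matplotlib 3.10.9 under Python 3.11.15.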

Additional observations from a re-analysis of the deposited data

Results flagged for a closer look

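Genes whose genotype effect had opposite signs at the 2 times, by at least 1.5-fold at each, were singled out. There were 469 genes lower in *Snord116del* at Zt +6 and higher at Zt +16, and 4 genes with the reverse order. With 1 value for each group, the difference was not tested. *Ccl21b*, a chemokine gene with near-identical copies that may share its reads, was at 8.28, 2.91, 4.37 and 15.1 FPKM in WT and the deletion group at Zt +6 and the same at Zt +16. *2810428I15Rik* was at 91.0, 32.5, 84.0 and 199 FPKM in the same order. In WT both were at like or lower levels in the dark, and the deletion group crossed them. Among genes of at least 5 FPKM with no group at 0, effects of any size were of opposite sign in 1595 genes lower and then higher and in 39 higher and then lower. Of the 39, *Rpph1*, the RNA of RNase P, was at 63.1, 117, 39.3 and 34.9 FPKM, and *Tyms*, an enzyme of thymidine synthesis, at 19.0, 25.8, 13.7 and 12.0. *Gng4* and *Acin1* had smaller effects, of 0.30 and -0.23 and of 0.45 and -0.16.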

How the results depend on the processing

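No paired analysis was possible because the table has 1 value for each group, so that replicate numbers could not be used as a block, nor a mouse left out. Without scaling, 1088 genes had a higher and 1586 a lower effect at Zt +16. The values below are for settings that moved a count. With other folds these were 1998 and 3448 (1.5-fold) and 381 and 180 (3-fold). A pseudocount of 5 gave 710 and 343, the length trend removed 384 and 991, and the same total 368 and 3828. With a pseudocount of 0.1 the counts were 1332 and 2298, and with a mean of at least 5 FPKM 971 and 462. With the same median they were 1599 and 382, and after quantile normalization 1123 and 982. The median of all genes, -0.23, was 0.18 with a mean of at least 5 FPKM and 0.056 with the same median, both of the other sign, and -0.13 with a pseudocount of 5, -0.059 with no filter, -0.74 with the same total and -0.047 after quantile normalization. Genes higher at Zt +6 and within the limit at Zt +16 (4761) were 2736 with 2-fold at each time, 2429 with a pseudocount of 5, 1442 with at least 5 FPKM, 1538 with the same median and 2270 after quantile normalization. Genes within the limit at Zt +6 and higher at Zt +16 (1182) were 87 with 2-fold at each time, 513 with a pseudocount of 5, 30 with the same median, 14 with the same total and 16 after quantile normalization. Genes lower and then higher (469) were 31 with 2-fold at each time, 89 with the same median, 10 with the same total, 16 after quantile normalization and 114 with the length trend removed. Genes higher at both times (308) were 8 with 2-fold, 1048 with a pseudocount of 0.1, 36 with one of 5, and 7, 8 and 9 under the same median, the same total and quantile normalization. Of the genes named, 39 were no longer past the rule and 8 newly past it with the length trend removed, 24 and 7 with the same median, 14 and 17 with the same total, 15 and 4 after quantile normalization, and 0 and 5 with a pseudocount of 0.1. Among them the sign of a called value turned for Zbtb20 alone, from -1.09 to 0.27 with the length trend removed. The cause of these shifts was not tested. FPKM hides the depth, which limits low and short genes most.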
